A study of Homo sapiens with 12 samples.

Results

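Nucleoporins and the receptors that carry cargo through them were followed in 2 prostate cancer cell lines after an siRNA against the transcription factor GATA2. The set holds every array probe whose gene symbol is NUP followed by a number, or begins with KPNA, KPNB, IPO, XPO or TNPO, and whose detection p was under 0.05 on at least 3 of the 12 arrays. That left 53 of the 47323 probes on the array, for 44 of the 11933 genes with a detected probe, of which 21 encode nucleoporins and 23 encode transport receptors. One further probe, for NUP98, was detected on 0 arrays and is not among them, and NUP98 itself is represented by other probes. The rule uses symbols and detection, and no difference between groups.

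Both lines descend from LNCaP, an androgen-sensitive human prostate cancer line. MDVR is an enzalutamide-resistant derivative, selected in 25 microM of this antiandrogen drug, held at 10 microM during the experiments, and grown in 10% fetal bovine serum. Abl, short for LNCaP-abl, is an androgen-deprived derivative grown in 10% charcoal-stripped serum, from which steroids have been removed. Line, serum and enzalutamide therefore differ together and cannot be told apart. The 4 groups were MDVR with siGATA2, MDVR with siNT, Abl with siGATA2 and Abl with siNT, where siGATA2 is a single siRNA against GATA2 and siNT a non-targeting one. Each was given at 25 nM, RNA was taken 72 h later, and each group has 3 arrays. Each line is represented by 1 derivative only.

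The nuclear pore complex is a channel through the nuclear envelope, built from many copies of a set of proteins called nucleoporins. Scaffold nucleoporins of the Y complex and the inner ring form its frame, while nucleoporins rich in phenylalanine-glycine repeats fill the central channel and bind passing receptors. Importins bring proteins with a nuclear localisation signal in, exportins take cargo out, and the small GTPase RAN, bound to GTP in the nucleus and to GDP in the cytoplasm, sets the direction. Steroid hormone receptors, which act in prostate cells, enter the nucleus through this machinery.

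Values are normalized log2 intensities, on which a difference of 1 is a doubling of the background-corrected signal, and levels of different probes are not set against each other. A change was called when its adjusted p (limma, Benjamini-Hochberg over all 22539 detected probes) was under 0.05, and a gene with several member probes is described by its brightest. On each array 40.4% to 43.3% of probes were detected, and arrays of 1 group correlated at 0.989 to 0.992 across probes. The siRNA target was checked first. GATA2 read 8.43, 8.58 and 8.48 in siGATA2 Abl cells, against 9.12, 8.80 and 8.82 in siNT Abl cells, a called log2 change of -0.41 (SE 0.12, limma adjusted p = 0.0147). In MDVR it read 9.09, 8.80 and 8.86 with siGATA2, against 8.88, 9.16 and 9.26 with siNT, and these groups overlap (log2 change -0.18, limma adjusted p = 0.355), so this probe does not show a knockdown in MDVR at 72 h. The luminal prostate markers KRT8, KRT18, EPCAM, CDH1, HOXB13 and KLK3 were detected. Of 13 markers of basal, stromal, endothelial and blood cells 12 had no detected probe. The exception, the macrophage-associated CD68, rose by 0.53 in Abl (limma adjusted p = 0.0147) and had a log2 change of 0.24 in MDVR (0.334), and its part in the members' changes was not tested.

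Most members that responded to siGATA2 lost signal. In Abl 19 of the 44 genes fell, 3 rose and 22 did not pass the test, where 28.2% of all 11933 genes passed it in either direction, 14.6% lower and 13.6% higher. The members' shares were 43.2% lower and 6.82% higher, and their median log2 change was -0.24, against 0.00 over all genes. The arrays of siGATA2 and siNT did not overlap for 25 of the 44, 22 lower and 3 higher, against 43.2% of all genes. In MDVR 12 genes fell, 2 rose and 30 did not pass the test, where 19.6% of all genes passed, 9.28% lower and 10.3% higher. The members' shares there were 27.3% lower and 4.55% higher, with a median log2 change of -0.17, against -0.00 over all genes, and the arrays did not overlap for 18 members, 16 lower and 2 higher, against 36.3% of all genes. The members were measured somewhat more tightly than the average gene, with a median SE of 0.11, against 0.14 over all genes. In bulk RNA fewer cells of a type and less RNA per cell cannot be told apart.

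**Figure D1:**
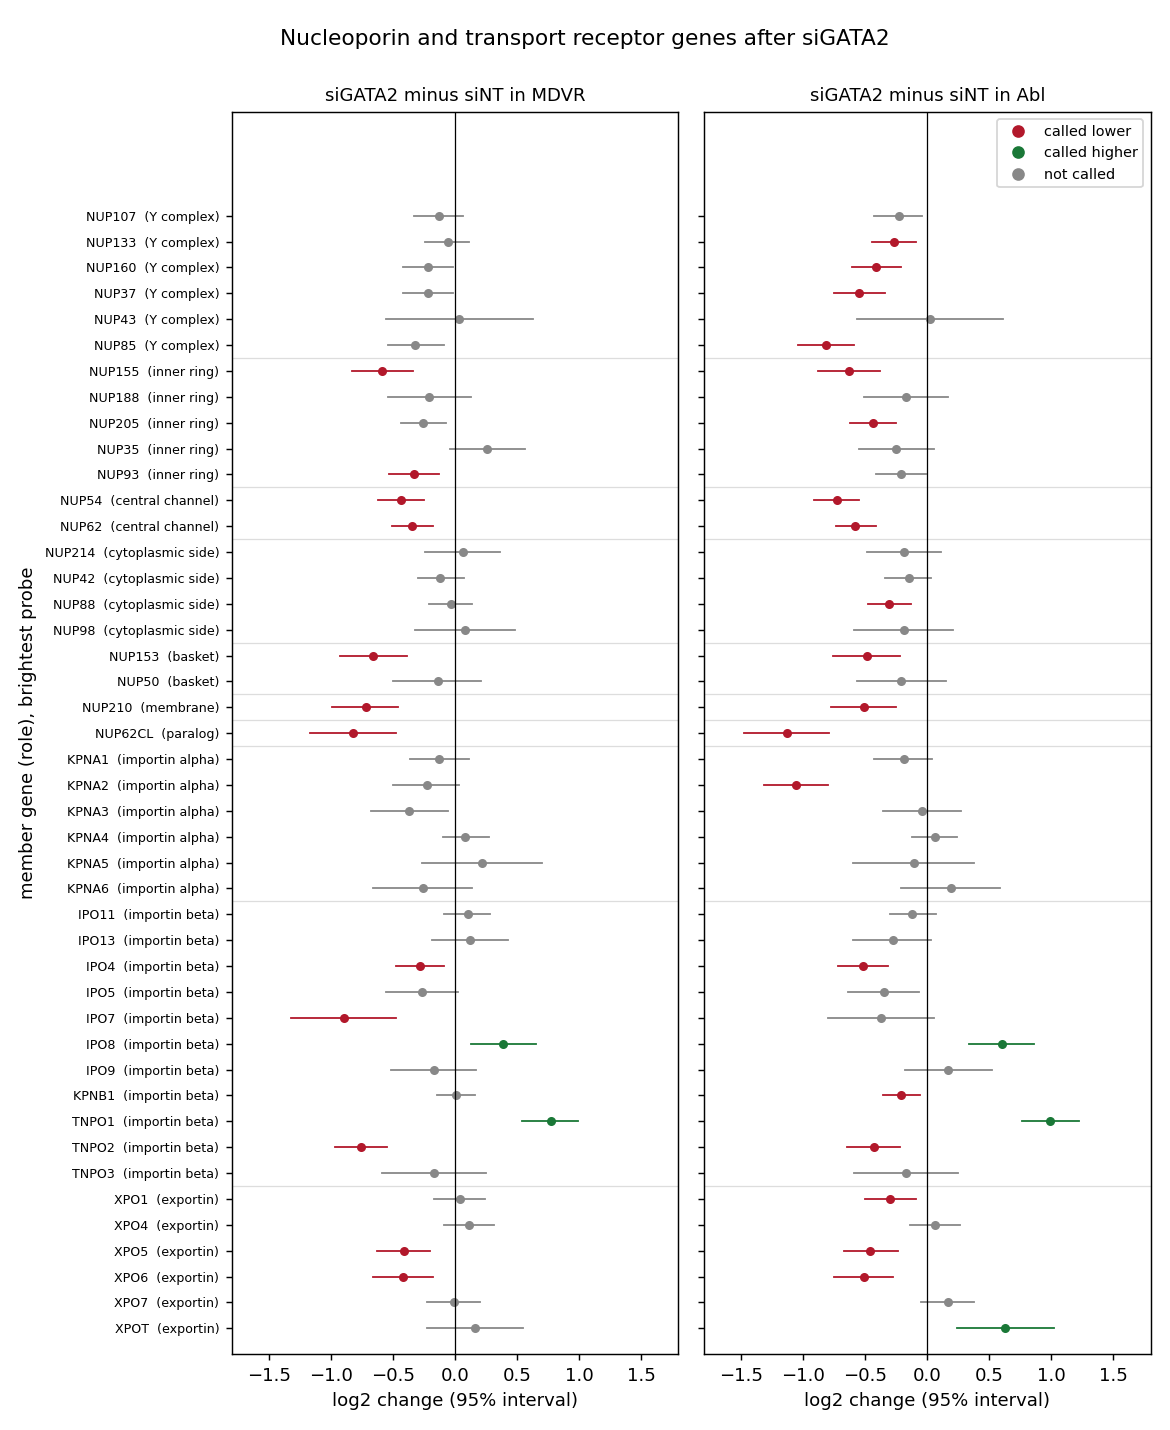
Log2 change with siGATA2, against siNT, of the 44 member genes in MDVR (left) and Abl (right), brightest probe of each gene, with the 95% interval of the limma fit and genes grouped by role. Red points were called lower, green points higher and grey points not called; none of the 21 nucleoporins was called higher in either line, and TNPO1 stands furthest to the right in both.

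The nucleoporins carried most of this. In Abl 12 of the 21 fell, 0 rose and 9 did not pass the test, with a median log2 change of -0.31. In MDVR 7 fell, 0 rose and 14 did not pass it, with a median of -0.22. Among the 23 receptors, 7 fell and 3 rose in Abl (median -0.17), and 5 fell and 2 rose in MDVR (median -0.13). Called shares in Abl and MDVR were 57.1% and 33.3% of nucleoporins and 43.5% and 30.4% of receptors. Over all genes they were 28.2% and 19.6%. A fall in both lines was called for 10 members, NUP62, NUP54, NUP155, NUP153, NUP210, NUP62CL, IPO4, TNPO2, XPO5 and XPO6, which is 52.6% of those that fell in Abl and 83.3% of those that fell in MDVR, while among all genes the shared falls made up 40.1% and 63.2%. The lines share no arrays.

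Proliferation genes moved in the same groups. Of 18 such genes, among them TOP2A, CCNB1 and the MCM helicase subunits, 17 fell in Abl (median log2 change -1.45) and 12 fell in MDVR (median -0.42). These are 94.4% and 66.7% called, against 28.2% and 19.6% of all genes. The mean log2 intensity of the 18 genes was 7.48, 7.62 and 7.40 in siGATA2 Abl cells, against 8.91, 9.08 and 8.99 in siNT Abl cells. In MDVR it was 8.77, 8.71 and 8.77 with siGATA2, against 9.14, 9.29 and 9.22 with siNT. The mean over the 44 members was 8.48, 8.53 and 8.45 in siGATA2 Abl cells, against 8.77, 8.70 and 8.73 in siNT Abl cells, and 8.60, 8.61 and 8.64 in siGATA2 MDVR cells, against 8.77, 8.83 and 8.78 in siNT MDVR cells. For both sets the groups are separate in each line. The part of proliferation in the members' changes was not tested.

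The Y complex is the outer scaffold of the pore. The symbol rule picked 6 of its genes, and 4 of these fell in Abl, where 14.6% of all genes fell. NUP85 read 8.18, 8.43 and 8.24 in siGATA2 Abl cells, against 8.95, 9.15 and 9.21 in siNT Abl cells, and fell by 0.82 on the log2 scale (SE 0.11, limma adjusted p = 1.3e-05). NUP37, a small subunit that sits on NUP160, read 10.26, 10.47 and 10.25 with siGATA2, against 11.04, 10.83 and 10.74 with siNT (log2 change -0.55, SE 0.10, limma adjusted p = 0.000295). In both genes every siGATA2 array of Abl lay below every siNT array. NUP160 fell by 0.41 (limma adjusted p = 0.00364) and NUP133 fell by 0.27 (0.0259), while NUP107 at -0.23 and NUP43 at 0.02 were not called. In MDVR 0 of the 6 passed the test, against 19.6% of all genes. Their log2 changes there were -0.32 to 0.03, and NUP85 came nearest: it read 9.07, 9.08 and 9.36 with siGATA2, against 9.37, 9.58 and 9.51 with siNT (log2 change -0.32, limma adjusted p = 0.0544). The NUP133 call in Abl ended without siNT replicate 3 or siGATA2 replicate 3 or 4 of that line (limma adjusted p = 0.0545 to 0.14), without the detection filter (0.0596) and without a trend in the spread (0.0753).

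The inner ring joins the scaffold to the membrane and the channel, and its linker NUP155 fell by nearly the same amount in both lines. NUP155 read 8.29, 8.26 and 8.17 in siGATA2 Abl cells, against 9.03, 8.94 and 8.64 in siNT Abl cells (log2 change -0.63, SE 0.12, limma adjusted p = 0.000525). MDVR cells read 8.31, 8.73 and 8.47 with siGATA2, against 9.01, 9.10 and 9.16 with siNT (log2 change -0.59, SE 0.12, limma adjusted p = 0.00175). The groups did not overlap in either line. NUP205, a large ring subunit, fell by 0.44 in Abl (limma adjusted p = 0.00111) and had a log2 change of -0.26 in MDVR (0.0558). NUP93, which anchors the channel nucleoporins, read 8.98, 9.09 and 8.93 in siGATA2 MDVR cells, against 9.34, 9.25 and 9.40 in siNT MDVR cells, and fell by 0.33 (SE 0.10, limma adjusted p = 0.0231); in Abl its change was -0.21 (0.135). NUP188 had log2 changes of -0.17 in Abl and -0.21 in MDVR, and NUP35 of -0.25 in Abl and 0.26 in MDVR, none of them called. The NUP93 call ended without siNT replicate 2 or 4 or siGATA2 replicate 1 or 3 of MDVR (limma adjusted p = 0.0655 to 0.0861), on the authors' values (0.0506) and without a trend in the spread (0.0784).

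Both central channel genes among the members fell in both lines, where 14.6% of all genes fell in Abl and 9.28% in MDVR. NUP62, whose repeats bind passing receptors, read 10.43, 10.50 and 10.50 in siGATA2 Abl cells, against 11.08, 11.11 and 10.97 in siNT Abl cells, and fell by 0.58 (SE 0.08, limma adjusted p = 1.64e-05). In MDVR it read 11.12, 11.12 and 10.88 with siGATA2, against 11.40, 11.36 and 11.40 with siNT, and fell by 0.35 (SE 0.08, limma adjusted p = 0.00419). Its second, dimmer probe fell by 0.94 in Abl and by 0.48 in MDVR, also called. NUP54, a partner of NUP62 in the same subcomplex, read 9.27, 9.46 and 9.30 in siGATA2 Abl cells, against 10.18, 9.98 and 10.07 in siNT Abl cells (log2 change -0.73, SE 0.09, limma adjusted p = 4.16e-06). In MDVR NUP54 read 9.73, 9.93 and 9.81 with siGATA2, against 10.24, 10.34 and 10.20 with siNT (log2 change -0.44, SE 0.09, limma adjusted p = 0.0017), and a second NUP54 probe fell by 0.60 in Abl and by 0.57 in MDVR. All 4 probes kept the groups apart in both lines.

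On the nuclear and membrane sides, NUP153 and NUP210 fell in both lines. NUP153, a basket protein that binds the lamina and importins, read 7.70, 7.46 and 7.62 in siGATA2 Abl cells, against 7.97, 8.09 and 8.20 in siNT Abl cells (log2 change -0.49, SE 0.13, limma adjusted p = 0.00859). MDVR cells read 8.02, 7.67 and 8.19 with siGATA2, against 8.66, 8.52 and 8.68 with siNT (log2 change -0.66, SE 0.13, limma adjusted p = 0.00133). NUP210, a membrane-spanning nucleoporin, read 7.69, 7.74 and 7.78 in siGATA2 Abl cells, against 8.27, 8.20 and 8.27 in siNT Abl cells (log2 change -0.51, SE 0.13, limma adjusted p = 0.00583). In MDVR NUP210 read 7.40, 7.16 and 7.52 with siGATA2, against 7.84, 8.17 and 8.24 with siNT (log2 change -0.72, SE 0.13, limma adjusted p = 0.00047). The siGATA2 and siNT arrays of both genes were separate in both lines. NUP50, another protein of the basket, had log2 changes of -0.21 in Abl and -0.14 in MDVR, neither called. On the authors' values the NUP153 falls were 0.26 in Abl and 0.40 in MDVR and the NUP210 falls 0.29 and 0.37, all still called.

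Of the 4 member nucleoporins on the cytoplasmic side, NUP88, a docking partner of NUP214, was the 1 that passed the test in Abl. That is 25% called, near the 28.2% of all genes. NUP88 fell in Abl by 0.31 (limma adjusted p = 0.0117), and 0 of the 4 passed in MDVR, against 19.6% of all genes. NUP98, which also lines the channel, read 6.11, 6.47 and 5.99 in siGATA2 Abl cells, against 6.28, 6.27 and 6.59 in siNT Abl cells, and 6.61, 6.60 and 6.72 in siGATA2 MDVR cells, against 6.30, 7.00 and 6.39 in siNT MDVR cells. Its groups overlap in both lines (log2 changes -0.19 and 0.08, limma adjusted p = 0.537 and 0.85). NUP214 and NUP42 had log2 changes of -0.19 and -0.15 in Abl and of 0.06 and -0.12 in MDVR, none called. The NUP88 call ended without siNT replicate 2 or siGATA2 replicate 4 of Abl (limma adjusted p = 0.0762 and 0.0639), with median scaling (0.0555) and without a trend in the spread (0.0528).

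NUP62CL, a shorter paralog of NUP62 with no settled place in the pore, fell in both lines. It read 6.18, 6.14 and 5.65 in siGATA2 Abl cells, against 7.08, 7.26 and 7.03 in siNT Abl cells (log2 change -1.13, SE 0.17, limma adjusted p = 3.96e-05). MDVR cells read 7.46, 7.14 and 7.53 with siGATA2, against 8.03, 8.45 and 8.13 with siNT (log2 change -0.82, SE 0.17, limma adjusted p = 0.00166). The groups were far apart in both lines, though the probe is dim and its size depends on the background correction: without one the falls were 0.48 in Abl and 0.52 in MDVR, and on the authors' values 0.36 and 0.43, all called. It had the largest fall of the 44 in Abl with the reported correction only. Under both of these alternatives KPNA2, NUP54, NUP85, NUP62 and NUP37 fell further, and on the authors' values NUP155, XPO6 and TNPO2 also did.

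**Figure D2:**
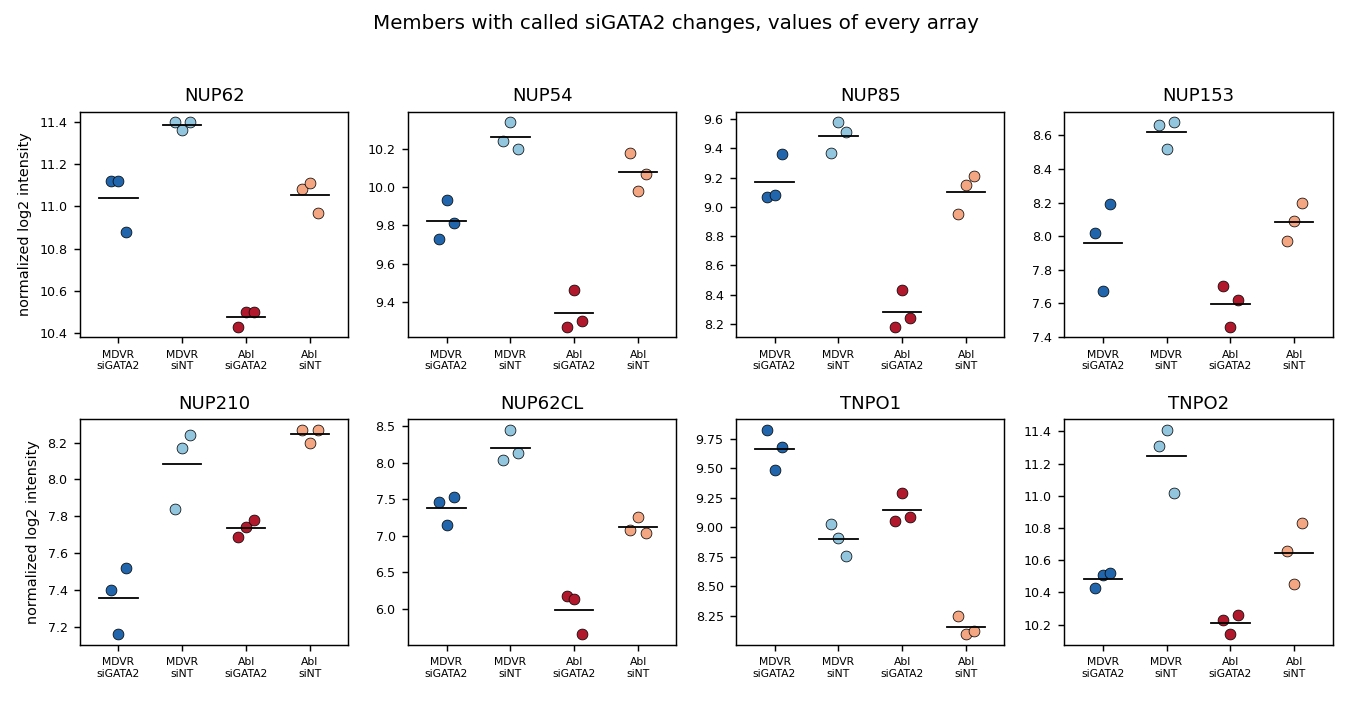
Normalized log2 intensity (y axis) on every array for 8 members with called siGATA2 changes, with a bar at each group's mean of 3 arrays and the groups ordered MDVR siGATA2, MDVR siNT, Abl siGATA2 and Abl siNT. In 7 of the panels the siGATA2 arrays lie below the siNT arrays of the same line, whereas for TNPO1 they lie higher (9.05 to 9.29 with siGATA2, against 8.09 to 8.25 with siNT in Abl); NUP85 was called in Abl only.

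Among the importin alpha adaptors, which bind the classical nuclear localisation signal and hand their cargo to KPNB1, KPNA2 was the 1 of 6 called in Abl. That is 16.7%, below the 28.2% of all genes, and in MDVR 0 of the 6 were called, against 19.6% of all genes. The brighter KPNA2 probe read 8.36, 8.12 and 7.99 in siGATA2 Abl cells, against 9.16, 9.19 and 9.32 in siNT Abl cells, and fell by 1.06 on the log2 scale (SE 0.13, limma adjusted p = 3.34e-06), a 2.09-fold lower signal. In MDVR it read 8.86, 9.04 and 8.59 with siGATA2, against 9.14, 8.86 and 9.19 with siNT, and these overlap (log2 change -0.23, 95% interval -0.50 to 0.03, limma adjusted p = 0.244). The second KPNA2 probe read 8.38, 8.14 and 8.30 in siGATA2 Abl cells, against 9.20, 9.24 and 8.83 in siNT Abl cells, and fell by 0.82 (SE 0.12, limma adjusted p = 3.74e-05). In MDVR that probe read 8.91, 9.09 and 8.93 with siGATA2, against 8.69, 8.89 and 9.02 with siNT (log2 change 0.11, limma adjusted p = 0.631). Both probes therefore separate the groups in Abl and mix them in MDVR.

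The difference between the lines was itself called for KPNA2. The MDVR change minus the Abl change was 0.83 (95% interval 0.46 to 1.20, SE 0.18, limma adjusted p = 0.00936) on the brighter probe and 0.93 (95% interval 0.58 to 1.28, limma adjusted p = 0.00243) on the other. KPNA2 was the only member gene of 44 called for this difference, 2.27%, against 4.96% of all genes in either direction, 2.86% higher and 2.1% lower, a share below that of all genes. The median difference was 0.08 over the members and 0.02 over all genes. In the same contrast 14 of the 18 proliferation genes were called, with a median difference of 1.04; their part in the KPNA2 result was not tested. With the replicate number as a block across the groups the KPNA2 difference kept its size and lost its call (0.83, limma adjusted p = 0.0853). RefSeq lists pseudogene copies of KPNA2, and signal from them cannot be told apart here. Among the other positive differences, NUP85 had a difference of 0.50 and NUP35 of 0.51, neither called (limma adjusted p = 0.0735 and 0.179); NUP85 was called without siNT replicate 1 of Abl (0.58, limma adjusted p = 0.0393), and both were called when the probes of a gene were averaged (0.50 with 0.0446 for NUP85, 0.57 with 0.0277 for NUP35).

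**Figure D3:**
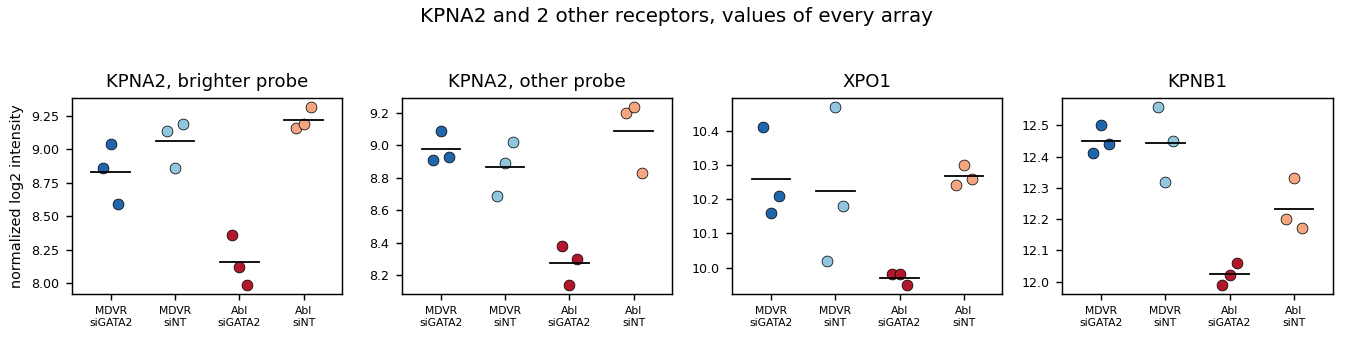
Normalized log2 intensity (y axis) on every array for both KPNA2 probes, XPO1 and KPNB1, with a bar at each group's mean of 3 arrays and the groups ordered MDVR siGATA2, MDVR siNT, Abl siGATA2 and Abl siNT. For KPNA2 the siGATA2 arrays of Abl lie between 7.99 and 8.38 on the 2 probes, below every other array shown for them; for XPO1 and KPNB1 the gap in Abl is small and the MDVR groups overlap.

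The other importin alpha genes KPNA1, KPNA3, KPNA4, KPNA5 and KPNA6 had log2 changes of -0.19 to 0.19 in Abl and of -0.37 to 0.22 in MDVR, none called. KPNB1, the carrier that importin alpha works with, read 11.99, 12.02 and 12.06 in siGATA2 Abl cells, against 12.20, 12.33 and 12.17 in siNT Abl cells, and fell by 0.21 (SE 0.07, limma adjusted p = 0.0456). MDVR cells read 12.41, 12.50 and 12.44 with siGATA2, against 12.56, 12.32 and 12.45 with siNT (log2 change 0.01, 95% interval -0.15 to 0.16). The groups were separate in Abl by a narrow margin and overlapped in MDVR. The Abl call for KPNB1 ended with median scaling (log2 change -0.14, limma adjusted p = 0.275), without the detection filter (0.0914), without a trend in the spread (0.147), and without any 1 of 8 arrays: siNT replicate 1 or 2 or siGATA2 replicate 2, 3 or 4 of Abl, siNT replicate 4 of MDVR, or siGATA2 replicate 1 or 2 of MDVR (0.0509 to 0.193).

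By its brighter probe TNPO1 rose, while TNPO2 fell. TNPO1, which imports RNA-binding proteins such as HNRNPA1, read 9.05, 9.29 and 9.09 in siGATA2 Abl cells, against 8.25, 8.09 and 8.12 in siNT Abl cells, and rose by 0.99 (SE 0.11, limma adjusted p = 1.3e-06), a 1.99-fold higher signal. In MDVR it read 9.83, 9.49 and 9.68 with siGATA2, against 9.03, 8.91 and 8.76 with siNT, and rose by 0.77 (SE 0.11, limma adjusted p = 5.6e-05). Its close paralog TNPO2 read 10.23, 10.14 and 10.26 in siGATA2 Abl cells, against 10.66, 10.45 and 10.83 in siNT Abl cells (log2 change -0.43, SE 0.10, limma adjusted p = 0.00382). In MDVR TNPO2 read 10.43, 10.51 and 10.52 with siGATA2, against 11.31, 11.41 and 11.02 with siNT (log2 change -0.76, SE 0.10, limma adjusted p = 3.02e-05). No array of one treatment crossed into the other for these probes in either line. A second, dimmer TNPO1 probe did not share the rise: its log2 changes were 0.45 in Abl (SE 0.28, limma adjusted p = 0.288) and -0.01 in MDVR (limma adjusted p = 0.984), and with both probes averaged the MDVR change was 0.38 and not called (limma adjusted p = 0.126). TNPO3, the carrier of splicing factors rich in serine and arginine, had a log2 change of -0.17 in both lines, not called.

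Among the importins that carry ribosomal proteins, histones and other basic cargo, IPO4 and IPO7 fell and IPO8 rose. IPO8 read 9.16, 9.11 and 8.94 in siGATA2 Abl cells, against 8.54, 8.68 and 8.19 in siNT Abl cells (log2 change 0.60, SE 0.12, limma adjusted p = 0.00133), and 8.39, 8.20 and 8.18 in siGATA2 MDVR cells, against 7.77, 7.84 and 8.00 in siNT MDVR cells (log2 change 0.39, SE 0.12, limma adjusted p = 0.0372). IPO4 read 8.39, 8.45 and 8.49 in siGATA2 Abl cells, against 8.89, 8.99 and 9.00 in siNT Abl cells (log2 change -0.52, SE 0.09, limma adjusted p = 0.000383), and 8.08, 8.12 and 8.01 in siGATA2 MDVR cells, against 8.42, 8.32 and 8.31 in siNT MDVR cells (log2 change -0.28, SE 0.09, limma adjusted p = 0.0482). For both genes the groups were separate in each line. IPO7 read 6.03, 5.73 and 6.39 in siGATA2 MDVR cells, against 6.92, 7.06 and 6.86 in siNT MDVR cells, and fell by 0.90 (SE 0.20, limma adjusted p = 0.00415). In Abl IPO7 read 5.90, 5.70 and 5.78 with siGATA2, against 6.64, 5.92 and 5.93 with siNT (log2 change -0.37, limma adjusted p = 0.213). This probe is dim, and on the authors' values its MDVR fall was 0.28 and still called. IPO5, IPO9, IPO11 and IPO13 had log2 changes of -0.35 to 0.17 in Abl and of -0.27 to 0.12 in MDVR, none called.

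In MDVR the IPO4 and IPO8 calls were fragile. The IPO4 call ended without any 1 of the 12 arrays (limma adjusted p = 0.0502 to 0.152) and under 7 other settings, including the authors' values (log2 change -0.17, limma adjusted p = 0.0558). The IPO8 call ended without siNT replicate 2 or 3 or siGATA2 replicate 1, 2 or 3 of MDVR (limma adjusted p = 0.0509 to 0.145) and under 5 other settings, including the authors' values (log2 change 0.22, limma adjusted p = 0.053).

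Of the 6 exportins, XPO5 and XPO6 fell in both lines. XPO5, the exporter of microRNA precursors, read 8.44, 8.21 and 8.41 in siGATA2 Abl cells, against 8.79, 8.75 and 8.90 in siNT Abl cells (log2 change -0.46, SE 0.10, limma adjusted p = 0.00293), and 9.41, 9.39 and 9.41 in siGATA2 MDVR cells, against 9.73, 9.68 and 10.05 in siNT MDVR cells (log2 change -0.41, SE 0.10, limma adjusted p = 0.00932). XPO6, which removes actin from the nucleus, read 9.18, 9.03 and 8.84 in siGATA2 Abl cells, against 9.44, 9.49 and 9.67 in siNT Abl cells (log2 change -0.51, SE 0.11, limma adjusted p = 0.00228), and 9.57, 9.14 and 9.23 in siGATA2 MDVR cells, against 9.73, 9.67 and 9.81 in siNT MDVR cells (log2 change -0.42, SE 0.11, limma adjusted p = 0.0148). Neither gene's groups overlapped. On the authors' values the XPO5 fall in Abl was 0.30, still called. The MDVR call for XPO5 ended without siNT replicate 4 of MDVR (limma adjusted p = 0.0723), and that for XPO6 without siNT replicate 4 or siGATA2 replicate 2 or 3 of MDVR (limma adjusted p = 0.0579 to 0.0891) and without a trend in the spread (0.0566).

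The remaining exportins split. XPOT, the tRNA exporter, read 8.22, 8.78 and 8.43 in siGATA2 Abl cells, against 7.97, 7.51 and 8.06 in siNT Abl cells, and rose by 0.63 (SE 0.19, limma adjusted p = 0.0181), while in MDVR it read 8.54, 9.10 and 8.62 with siGATA2, against 8.59, 8.25 and 8.94 with siNT (log2 change 0.16, limma adjusted p = 0.654). XPO1, the exporter of proteins with a leucine-rich export signal, read 9.98, 9.98 and 9.95 in siGATA2 Abl cells, against 10.24, 10.30 and 10.26 in siNT Abl cells, and fell by 0.30 (SE 0.10, limma adjusted p = 0.0369). In MDVR XPO1 read 10.41, 10.16 and 10.21 with siGATA2, against 10.02, 10.47 and 10.18 with siNT (log2 change 0.04, 95% interval -0.17 to 0.24). XPOT and XPO1 were thus separate in Abl and overlapping in MDVR, but the difference between the lines was not called for either (limma adjusted p = 0.379 and 0.214). XPO4 and XPO7 had log2 changes of 0.06 and 0.17 in Abl and of 0.11 and -0.01 in MDVR, none called. The XPO1 call ended without any 1 of the 6 Abl arrays (limma adjusted p = 0.0557 to 0.101), without the detection filter (0.0673) and without a trend in the spread (0.105). That of XPOT ended without siNT replicate 2 or siGATA2 replicate 3 of Abl (limma adjusted p = 0.115 and 0.112) and without a trend in the spread (0.0652). On the authors' values the XPOT rise in Abl was 0.37 and still called.

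Promoter letters were read for the members because many of them fell together. RefSeq promoter entries (GRCh38.p14, 250 bases before to 50 after the gene start) were matched for 39 of the 44 genes by Entrez gene ID. The letters searched, on both strands, were TTTGAA, the core of the cell cycle gene homology region, CCAAT, an E2F site as TTTCCCGC or TTTGGCGC, and a GATA motif, which is GATA with A or T just before it and A or G just after it. The comparison set of 27303 promoters was taken whether or not a gene was detected here, whereas every member was detected. TTTGAA occurred in 20.5% of member promoters, against 15.4% of all 27303 promoters, and CCAAT in 51.3%, against 35.7%. Both together occurred in 12.8%, against 6.08%. The E2F letters occurred in 2.56%, against 2.31%, and the GATA letters in 15.4%, against 25.5%. Members lower in Abl and members not called there held the GATA letters in 16.7% each and TTTGAA in 22.2% each, of 18 promoters in each set. CCAAT occurred in 9 promoters of the lower set and in 10 of the set not called. TTTGAA and CCAAT together occurred in 3 of the lower set and in 2 of the set not called, NUP35 and NUP98. A link between these letters and the falls was not tested. The 250 bases before the gene start are printed for 3 members that fell in Abl and hold both TTTGAA and CCAAT, KPNA2 at chr17:68035485-68035734 (plus strand), NUP37 at chr12:102120115-102120364 (minus strand) and NUP205 at chr7:135557667-135557916 (plus strand), and for TNPO1, whose brighter probe rose in both lines and which holds CCAAT without TTTGAA, at chr5:72816411-72816660 (plus strand). Capitals mark TTTGAA and CCAAT on either strand, each sequence runs 5′ to 3′ on the gene's strand, and a match is a description of letters only.
KPNA2: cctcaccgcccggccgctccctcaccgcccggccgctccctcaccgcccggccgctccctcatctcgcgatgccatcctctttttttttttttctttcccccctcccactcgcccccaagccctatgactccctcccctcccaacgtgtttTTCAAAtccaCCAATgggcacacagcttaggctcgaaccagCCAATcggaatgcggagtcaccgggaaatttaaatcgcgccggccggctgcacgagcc
NUP37: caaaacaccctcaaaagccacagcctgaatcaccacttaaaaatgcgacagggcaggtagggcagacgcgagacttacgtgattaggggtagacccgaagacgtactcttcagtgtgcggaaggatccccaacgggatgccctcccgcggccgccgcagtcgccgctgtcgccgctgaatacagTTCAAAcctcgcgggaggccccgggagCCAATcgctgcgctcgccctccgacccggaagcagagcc
NUP205: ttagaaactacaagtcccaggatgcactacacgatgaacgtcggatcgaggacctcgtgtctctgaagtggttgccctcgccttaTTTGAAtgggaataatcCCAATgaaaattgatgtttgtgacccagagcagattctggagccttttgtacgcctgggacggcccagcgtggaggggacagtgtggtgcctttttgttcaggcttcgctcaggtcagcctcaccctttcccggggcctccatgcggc
TNPO1: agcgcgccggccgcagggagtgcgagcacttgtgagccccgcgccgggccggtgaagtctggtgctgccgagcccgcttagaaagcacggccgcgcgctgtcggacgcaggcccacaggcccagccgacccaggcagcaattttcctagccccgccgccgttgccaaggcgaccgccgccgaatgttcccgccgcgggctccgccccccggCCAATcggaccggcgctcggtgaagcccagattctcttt

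Genes that work beside the members were described from lists of their known roles. Of 9 detected genes of the RAN cycle, 6 fell in Abl, 0 rose and the median log2 change was -0.36. In MDVR 3 fell, 0 rose and the median was -0.09. That is 66.7% called in Abl and 33.3% in MDVR, against 28.2% and 19.6% of all genes. RANGAP1, the activator of GTP hydrolysis by RAN at the cytoplasmic side of the pore, fell by 1.04 in Abl (limma adjusted p = 2.78e-08) and by 0.55 in MDVR (0.000153). CSE1L, which returns importin alpha to the cytoplasm, fell by 0.67 in Abl (limma adjusted p = 3.69e-06) and had a log2 change of -0.09 in MDVR (0.545). The difference between the lines was called for both, 0.49 for RANGAP1 (limma adjusted p = 0.0254) and 0.58 for CSE1L (0.00418). RAN itself fell by 0.34 in Abl and by 0.25 in MDVR (limma adjusted p = 0.00511 and 0.0461), and its binding protein RANBP1 fell by 0.36 and 0.23 (0.00102 and 0.031).

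Of 10 detected pore genes whose symbols lie outside the rule, 3 fell in Abl (median -0.19) and 1 fell in MDVR (median 0.01), with 0 rising in either line. That is 30% called in Abl, near the 28.2% of all genes, and 10% in MDVR, below the 19.6% of all genes. Since all of these calls were falls, the shares of all genes called lower, 14.6% in Abl and 9.28% in MDVR, also apply. The list lies above the first and near the second. The membrane anchor NDC1 fell by 0.82 in Abl (limma adjusted p = 0.000192), the basket filament TPR fell by 0.40 in Abl (0.0295), and POM121C, a membrane nucleoporin, fell by 0.39 in Abl and by 0.42 in MDVR (0.00359 and 0.00306). Of 18 detected mRNA export genes, 4 fell and 1 rose in Abl (median -0.13), and 3 fell and 1 rose in MDVR (median -0.01), 27.8% and 22.2% called, near the 28.2% and 19.6% of all genes. THOC3, a subunit of the THO complex, fell by 1.01 in Abl and by 0.89 in MDVR (limma adjusted p = 4.12e-05 and 0.000282). The export cofactor NXT2 rose by 0.43 in MDVR (limma adjusted p = 0.00845) and had a log2 change of -0.27 in Abl (0.0741), a called difference of 0.70 (0.00927). The other called genes of this list, named after their values were seen, were DDX39A at -0.48, ENY2 at -0.24 and DDX19B at 0.46 in Abl, DDX39B at -0.39 in MDVR, and NCBP2 at -0.33 in Abl and -0.37 in MDVR.

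Of 11 detected genes of the lamina and inner envelope, 6 fell and 1 rose in Abl (median -0.39), and 5 fell and 0 rose in MDVR (median -0.30). That is 63.6% called in Abl and 45.5% in MDVR, against 28.2% and 19.6% of all genes. LMNB2, a B-type lamin, fell by 1.09 in Abl and by 1.14 in MDVR (limma adjusted p = 3.23e-07 and 3.84e-07), and LMNB1 fell by 1.03 and 0.52 (9.49e-06 and 0.00981). The lamin B receptor LBR fell by 0.97 and 0.66 (limma adjusted p = 0.00091 and 0.0231), and TMPO, a lamin-binding envelope protein, by 0.79 and 0.70 (0.00055 and 0.00265). The gene that rose was LMNA, which encodes the A-type lamins, by 0.39 in Abl (limma adjusted p = 0.00842), and SYNE2, which links the envelope to the cytoskeleton, was the fifth that fell in MDVR, by 0.47 (0.00984); LMNA and SYNE2 were named after their values were seen.

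**Figure D4:**
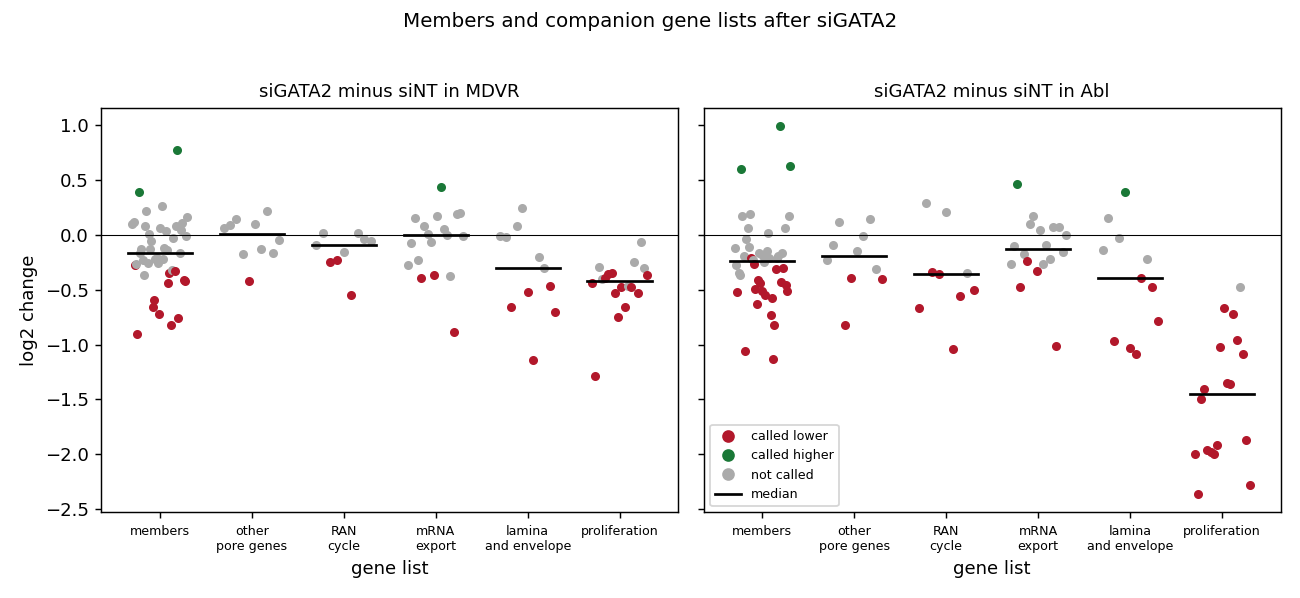
Log2 change with siGATA2, against siNT, of each detected gene (points) of the member set and 5 companion lists in MDVR (left) and Abl (right), with a bar at each list's median. The member medians were -0.17 in MDVR and -0.24 in Abl, those of the RAN cycle -0.09 and -0.36 and those of the lamina and envelope -0.30 and -0.39, while the proliferation genes lie lowest, at -0.42 and -1.45.

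Between the lines the members differed about as often as all genes under siNT and more often under siGATA2. Under siNT 14 of the 44 were higher in MDVR, 8 were lower and 22 did not pass the test, 50% called, against 48.9% of all genes, 24.4% higher and 24.5% lower. Under siGATA2 21 were higher, 9 lower and 14 not called, 68.2%, against 53.7% of all genes, and 47.7% were called higher and 20.5% lower, against 28.3% and 25.4% of all genes. The median log2 difference of MDVR over Abl was 0.16 under siNT (0.02 over all genes) and 0.27 under siGATA2 (0.03 over all genes). These siGATA2 arrays are the same ones that enter the comparisons of siGATA2 with siNT. Of the proliferation genes 17 of 18 were higher in MDVR under siGATA2 and 7 under siNT, and their part in the members' differences was not tested.

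NUP93 set the lines furthest apart. It read 8.98, 9.09 and 8.93 in siGATA2 MDVR cells, against 10.83, 10.89 and 10.54 in siGATA2 Abl cells, and 9.34, 9.25 and 9.40 in siNT MDVR cells, against 11.05, 10.84 and 10.98 in siNT Abl cells. Every MDVR array lay more than a whole log2 unit below every Abl array. The log2 difference was -1.75 under siGATA2 (SE 0.10, limma adjusted p = 7.71e-12) and -1.63 under siNT (SE 0.10, limma adjusted p = 2.66e-11), a 3.36-fold and a 3.09-fold lower signal in MDVR. NUP37 was also lower in MDVR, by -0.60 under siGATA2 and -0.93 under siNT on the log2 scale (limma adjusted p = 3.2e-05 and 1.4e-07); it read 9.79, 10.07 and 9.97 in siNT MDVR cells, against 11.04, 10.83 and 10.74 in siNT Abl cells.

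Of the nucleoporins higher in MDVR, NUP62CL differed by 1.39 under siGATA2 and 1.08 under siNT (limma adjusted p = 8.32e-07 and 2.3e-05), but by 0.47 and 0.54 on the authors' values, where NUP85 at 0.61, NUP133 at 0.53 and NUP62 at 0.52 exceeded it under siGATA2. NUP85 differed by 0.88 under siGATA2 and 0.38 under siNT (limma adjusted p = 1.15e-06 and 0.00721), NUP133 by 0.61 and 0.41 (5.82e-06 and 0.000637), and NUP62 by 0.57 and 0.33 (5.17e-06 and 0.00162). NUP133 read 10.42, 10.25 and 10.28 in siGATA2 MDVR cells, against 9.77, 9.72 and 9.61 in siGATA2 Abl cells. For these 4 genes the MDVR arrays lay above the Abl arrays under either siRNA. The brighter NUP98 probe differed by 0.45 under siGATA2 and by 0.18 under siNT, neither called, while the dimmer one differed by 0.59 under siGATA2, called (limma adjusted p = 0.031), and by 0.37 under siNT (0.19).

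XPO5 was the receptor that stood highest in MDVR relative to Abl. It read 9.41, 9.39 and 9.41 in siGATA2 MDVR cells, against 8.44, 8.21 and 8.41 in siGATA2 Abl cells, and 9.73, 9.68 and 10.05 in siNT MDVR cells, against 8.79, 8.75 and 8.90 in siNT Abl cells. Its log2 differences were 1.05 and 1.00 (SE 0.10 each, limma adjusted p = 6.29e-08 and 1.32e-07), close to a doubling in MDVR. IPO9, an importin for histones, read 7.65, 7.31 and 7.73 in siNT MDVR cells, against 6.93, 6.63 and 6.72 in siNT Abl cells (log2 difference 0.80, limma adjusted p = 0.000536), and KPNA6 read 9.17, 9.19 and 8.83 in siNT MDVR cells, against 8.86, 7.91 and 8.10 in siNT Abl cells (0.78, 0.00262), which overlap by 1 array. IPO7 at 0.78, XPOT at 0.75 and TNPO2 at 0.60 were also higher in MDVR under siNT (limma adjusted p = 0.0038, 0.00272 and 7.08e-05). Under siGATA2, of the same 5 genes, IPO9 at 0.46 and TNPO2 at 0.27 were called (limma adjusted p = 0.0295 and 0.0338), IPO9 with overlapping arrays, and KPNA6 at 0.32, XPOT at 0.28 and IPO7 at 0.25 were not (0.185, 0.249 and 0.337). On the authors' values the siNT differences of IPO9, KPNA6, IPO7 and XPOT were 0.33, 0.51, 0.24 and 0.45, all called.

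Receptors lower in MDVR were fewer. KPNA5, an importin alpha, is dim: its probe was detected on all 6 Abl arrays, but on 1 of 3 siGATA2 arrays and 2 of 3 siNT arrays of MDVR, so its MDVR level lies near background and the size of its differences is uncertain. It read 5.01, 4.96 and 5.84 in siGATA2 MDVR cells, against 6.06, 6.24 and 5.77 in siGATA2 Abl cells, and 4.77, 5.36 and 5.04 in siNT MDVR cells, against 5.92, 6.41 and 6.07 in siNT Abl cells. Its log2 differences were -0.75 and -1.08 (limma adjusted p = 0.0122 and 0.000837), with overlap under siGATA2 only, and on the authors' values they were -0.16 and -0.23. The siGATA2 call for KPNA5 ended without siGATA2 replicate 3 of Abl or siGATA2 replicate 1 or 2 of MDVR (limma adjusted p = 0.0593 to 0.0706). IPO8 differed by -0.81 under siGATA2 and -0.60 under siNT (limma adjusted p = 1.91e-05 and 0.000524) and IPO4 by -0.37 and -0.61 (0.00291 and 2.46e-05). KPNA3 read 8.41, 8.45 and 8.87 in siGATA2 MDVR cells, against 9.16, 9.05 and 9.07 in siGATA2 Abl cells, and differed by -0.51 under siGATA2 (limma adjusted p = 0.00784) and by -0.19 under siNT (0.354).

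KPNA2 was higher in MDVR under siGATA2, by 0.67 (SE 0.13, limma adjusted p = 0.000173), and not called under siNT (-0.16, limma adjusted p = 0.353), on the same arrays as its siGATA2 changes; on the authors' values the siGATA2 difference was 0.44 and called. KPNB1 differed by 0.42 under siGATA2 and 0.21 under siNT (limma adjusted p = 7.61e-05 and 0.0281), and XPO1 by 0.29 under siGATA2 (0.0214) and -0.04 under siNT (0.777). The brighter TNPO1 probe was higher in MDVR, by 0.52 under siGATA2 and 0.75 under siNT (limma adjusted p = 0.000516 and 1.16e-05), but the dimmer one was lower, by -0.71 under siGATA2 (0.0456) and -0.25 under siNT (0.534), and with both averaged the differences were -0.10 and 0.25, neither called. No direction between the lines is given for TNPO1.

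**Figure D5:**
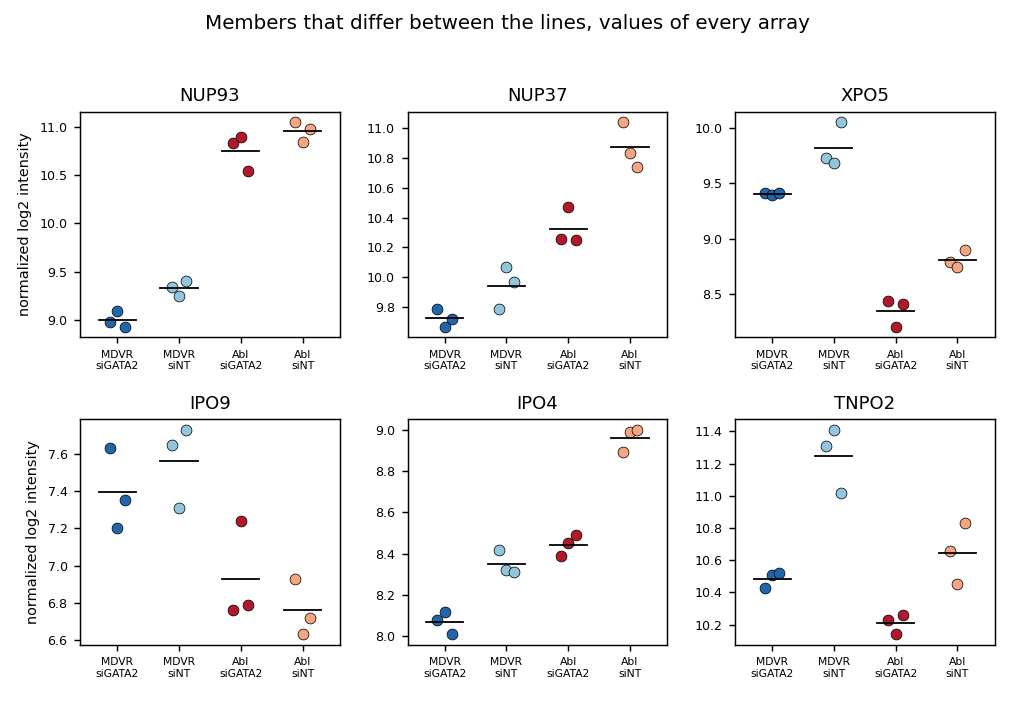
Normalized log2 intensity (y axis) on every array for 6 members that differ between the lines, with a bar at each group's mean of 3 arrays and the groups ordered MDVR siGATA2, MDVR siNT, Abl siGATA2 and Abl siNT. NUP93 lies at 8.93 to 9.40 on the MDVR arrays, against 10.54 to 11.05 on the Abl arrays. The means of NUP37 and IPO4 are also lower in MDVR within each siRNA, and those of XPO5, IPO9 and TNPO2 higher. The IPO9 arrays of the 2 lines overlap under siGATA2.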

How the data were processed

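RNA from 12 samples was hybridised to Illumina BeadChip arrays, 3 per group, and groups were read from the labels. Per the file headers, the authors deposited probe intensity on a linear scale, not normalized, with a detection p-value beside each deposited intensity. The authors' processed log2 values, deposited for 23043 probes, were used as an alternative; lumi is named for them per the submitters' processing notes, and no source used here gives its version or settings.

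Intensities were background corrected and quantile normalized with neqc (offset 16) in limma 3.58.1 (R 4.3.3), taking the control level from the detection p-values. The 22539 probes detected (p under 0.05) on 3 or more arrays were fitted with 4 group means and eBayes with a trend (8 residual degrees of freedom, 11.2 prior degrees of freedom), p-values were adjusted by Benjamini-Hochberg over all of them, and a change was called at an adjusted p under 0.05. Symbols came from the platform annotation: 16973 probes have 1 symbol and 5 have several, and 15867 kept probes with 1 symbol gave 11933 genes, each described by its brightest kept probe, while 6672 kept probes have no single symbol. Precision is limited by the number of arrays: over all kept probes the median SE was 0.17 for a change with siGATA2 and 0.24 for the line difference of such changes. Median raw intensity was 126 to 143 per array.

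Array values are given for the 12 called members with the largest changes per comparison and for KPNA2, KPNB1, XPO1, NUP62, NUP98, NUP153 and NUP210; a gene's values on 1 group are printed once where possible. Companion lists are named by up to 4 genes with the smallest adjusted p. The members and lists were chosen with earlier results of these data known. The labels do not say whether replicates were separate cultures, so p-values measure the spread between these samples, which may be technical. Alternatives covered the background, scaling, the authors' values, the filter, the probes per gene, the trend, replicate blocks and leaving out each array.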

Additional observations from a re-analysis of the deposited data

Results flagged for a closer look

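The change of KPNA2 with siGATA2 differed between the lines by the test of the difference itself. On the brighter probe the MDVR change minus the Abl change was 0.83 (limma adjusted p = 0.00936), made up of -0.23 in MDVR and -1.06 in Abl, and on the other probe it was 0.93 (limma adjusted p = 0.00243), made up of 0.11 in MDVR and -0.82 in Abl. On the authors' values the difference on the brighter probe was 0.55 (limma adjusted p = 0.00919). In each of the 3 siGATA2 arrays of Abl both probes lay below all 3 siNT arrays of that line.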

How the results depend on the processing

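Of the called changes with siGATA2, 17 of 22 in Abl and 8 of 14 in MDVR kept their call and direction under all 23 alternatives. Those that did not were KPNB1, NUP133, NUP88, XPO1 and XPOT in Abl and IPO4, IPO8, NUP93, TNPO1, XPO5 and XPO6 in MDVR. Of the 12 largest line differences rerun, 11 kept their call under siNT and 9 under siGATA2. The count of members that rose in MDVR was 2 as reported and 1 on the authors' values, without the detection filter, with probes averaged, without a trend and with the replicate block across groups. The count of members whose change was higher in MDVR than in Abl was 1 as reported, 3 with probes averaged and 0 with that block. Leaving out each array in turn gave 2 to 4 rises and 15 to 19 falls in Abl, 1 to 2 rises and 8 to 13 falls in MDVR, 1 to 2 members higher and 0 lower for the difference between lines, 13 to 15 higher and 7 to 9 lower in MDVR over Abl under siNT, and 14 to 22 higher and 7 to 9 lower under siGATA2. The count of rises in MDVR was 1 without siNT replicate 2 or 3 or siGATA2 replicate 1, 2 or 3 of MDVR, and that of the difference was 2 without siNT replicate 1 of Abl. TNPO1 in MDVR over Abl under siGATA2 turned to -0.10 with its probes averaged (limma adjusted p = 0.655), since the probes disagree. With the authors' values sizes of dim probes shrank, for NUP62CL in Abl to -0.36 and for IPO7 in MDVR to -0.28.

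The labels do not say whether replicate numbers in the titles pair the samples. Deviations of samples with the same number in the same line correlated at 0 to 0.11 over 4 pairs. Those with different numbers in the same line correlated at -0.19 to 0.17 over 14 pairs. So few pairs cannot decide whether the numbers mark shared cultures. A replicate block within each line ended the calls of KPNB1 (limma adjusted p = 0.088), NUP133 (0.0886), NUP88 (0.0631) and XPO1 (0.0852) in Abl and of IPO4 (0.164), IPO8 (0.0972), NUP93 (0.104) and XPO5 (0.156) in MDVR. A replicate block across groups ended those of KPNB1 (0.0592), NUP133 (0.118), XPO1 (0.164) and XPOT (0.131) in Abl, of IPO4 (0.17), IPO8 (0.161) and XPO5 (0.0786) in MDVR, of the KPNA2 difference (0.0853) and of KPNA3 in MDVR over Abl under siGATA2 (0.0636). Over all probes the difference between lines was called for 588 within lines and 300 across groups, against 875 as reported. The block within each line cannot give a line difference. A block for the slide was not run, as the files used here give none.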
